A study of Mus musculus with 12 samples.

Results

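The enzymes that build triglycerides and phosphatidylcholine in the liver were described here through 10 genes, namely Gpam, Agpat2, Agpat3, Lpin1, Lpin2, Lpin3, Dgat1, Dgat2, Pemt and Pcyt1a. Every probe that the array design names for 1 of these genes was taken, which gave 23 of the 41174 non-control probes. The RNA came from whole livers of male C57BL/6 mice, 1 array per mouse and 3 mice per group, kept on their diet for 34 weeks. The 4 groups were SIRT1+/- mice on a high-fat diet (Het high-fat), SIRT1+/+ mice on a high-fat diet (WT high-fat), SIRT1+/- mice on a low-fat diet (Het low-fat) and SIRT1+/+ mice on a low-fat diet (WT low-fat). SIRT1 is a protein deacetylase that depends on NAD, and the series concerns its role in metabolic disease caused by diet. Neither the age of the mice nor the composition of the diets is given in the sources used here.

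Triglyceride synthesis starts when a fatty acid is joined to glycerol-3-phosphate, a step that GPAM carries out at the mitochondrial outer membrane. The AGPAT enzymes add another fatty acid and make phosphatidic acid, and the lipins remove its phosphate to leave diacylglycerol. DGAT1 and DGAT2 add the last fatty acid and complete the triglyceride, which the liver stores in droplets or secretes in lipoproteins. Diacylglycerol also feeds the CDP-choline route to phosphatidylcholine, whose rate-limiting enzyme is encoded by Pcyt1a. PEMT makes phosphatidylcholine by another route, methylation of phosphatidylethanolamine, which is active mainly in the liver.

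Each level below is a log2 processed intensity relative to the 75th percentile of its array, so 0 is the brightness of that percentile. Levels of different probes are not set against each other, since brightness also depends on the probe. A difference is a difference of mean log2 levels with its standard error (SE), tested with limma over 25297 probes that passed a filter on dim signals. It is called where the Benjamini-Hochberg adjusted p was under 0.05. All 23 probes passed the filter, and no spot of theirs was saturated or marked as an outlier. They lay well above background on all 12 arrays, except an Lpin2 probe (A_52_P397786) that did so on 2 of 3 Het low-fat arrays.

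The 60-base probes of the genes that gave a call are printed because the results turn on which stretch of the gene each one reads. All sequences are those of the array design, 5′ to 3′, with positions on the mm7 build of the mouse genome that the file headers name. The capitals mark the 40 bases that both Agpat2 probes share.
Gpam, A_52_P11388, chr19:54985147-54985206, minus strand: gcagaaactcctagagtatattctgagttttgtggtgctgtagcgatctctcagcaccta
Agpat2, A_51_P238565, chr2:26603419-26603478, minus strand: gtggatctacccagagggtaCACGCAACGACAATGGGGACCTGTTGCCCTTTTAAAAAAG
Agpat2, A_51_P238563, chr2:26600898-26600924, minus strand: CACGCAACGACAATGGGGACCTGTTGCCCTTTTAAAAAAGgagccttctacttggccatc
Lpin2, A_51_P370438, chr17:69525846-69526212, plus strand: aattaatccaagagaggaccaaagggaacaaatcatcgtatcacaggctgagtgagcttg
Lpin2, A_51_P483081, chr17:69486290-69486349, plus strand: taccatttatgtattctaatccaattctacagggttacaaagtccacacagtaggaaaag
Lpin3, A_51_P345975, chr2:160646495-160646554, plus strand: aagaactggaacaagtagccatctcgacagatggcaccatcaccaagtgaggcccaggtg
The first Agpat2 probe lies in 1 unbroken stretch of the chromosome, while the design places only 27 bases of the other. The first Lpin2 probe was designed on the Lpin2 mRNA and spans 367 bases of the chromosome, so it crosses a splice junction. The other was designed on a mouse cDNA clone that the design files call unclassifiable, and it lies 39556 bases upstream of the mRNA probe. No annotation of mm7 was used here, so exons and untranslated regions were not assigned.

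Sirt1, the gene of which the Het mice carry 1 intact copy, had 2 probes, and on each diet every Het liver read below every WT liver on both. On probe A_52_P358612 the levels were -0.73 to -0.67 in Het high-fat, against -0.37 to -0.17 in WT high-fat livers. They were -0.62 to -0.23 in Het low-fat, against -0.09 to 0.23 in WT low-fat livers. Over both diets the genotypes differed by -0.44 on this probe (limma adjusted p = 0.935) and by -0.64 on A_51_P141152 (limma adjusted p = 0.355), so neither was called, and whether the probes lie inside the altered part of the allele is not given. On the 12 arrays, 58.0% to 71.6% of spots exceeded background clearly. The high-fat arrays filled slides 1 and 2 with 1 scan day and the low-fat arrays slides 3 and 4 with another, so diet and scan day cannot be told apart. Slide 2 held all Het high-fat arrays and WT high-fat replicate 3, and slide 3 held Het low-fat replicate 1 and all WT low-fat arrays.

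With the high-fat diet, Lpin3 of the phosphatase step was called higher in Het livers and over both genotypes. Of the acylation steps, Gpam and 1 of 2 Agpat2 probes were called higher in WT livers and over both genotypes. No interaction of genotype and diet was called for any of the 23 probes. An Lpin2 probe taken from a cDNA clone was lower in both genotypes. In Het livers 1 of 23 probes was called higher (4.35%), against 6.79% of all probes tested, and 1 lower (4.35%), against 8.01%. In WT livers 2 were called higher (8.7%), against 2.42% of all probes, and 1 lower, against 3.27%. Over both genotypes 3 were higher (13%), against 12.3% of all probes, and 1 was lower, against 17.1%.

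Each share in Het livers rested on 1 of 23 probes, so its place below the share of the whole array is not read as a result. The higher share over both genotypes was close to that of the whole array. Without overlap between the diets, 4 probes lay higher and 1 lower in Het livers, against 16.6% and 19.2% of all probes. In WT livers 2 lay higher and 1 lower, against 11.5% and 18.5%. The median difference of the 23 probes was 0.14 in Het livers, against -0.01 over all probes, and 0.08 in WT livers, against -0.05. Of all probes called in WT livers 42.6% were higher, a share that was 58.6% after quantile normalization, 75% after scaling to the median and 57.2% with the trend on GC content and brightness removed. Over both genotypes it was 41.9%, and 59% after scaling to the median.

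**Figure D1:**
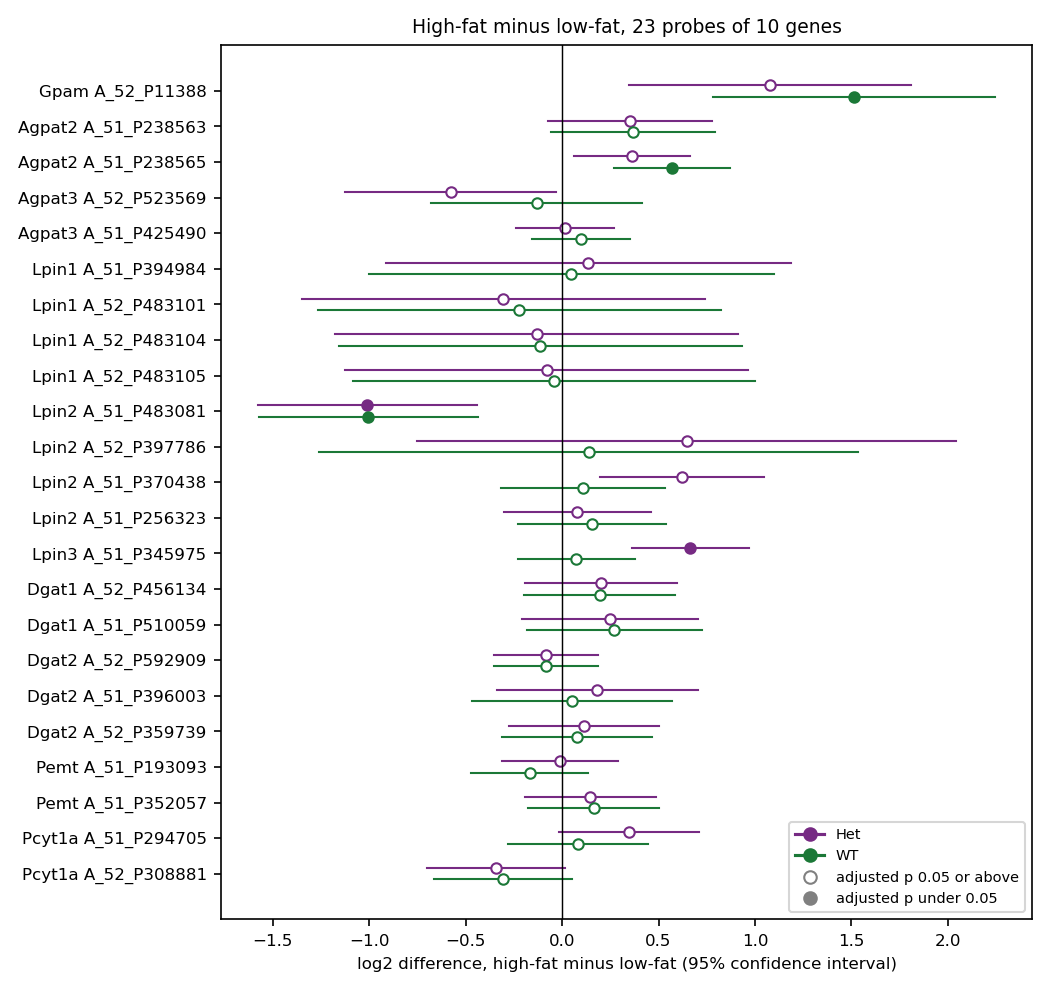
Log2 difference between the high-fat and the low-fat diet for each of the 23 probes, in Het (purple) and WT (green) livers, with bars for the 95% confidence interval and filled points where the adjusted p was under 0.05. The Gpam probe lies farthest to the right in WT livers at 1.51, the Lpin2 clone probe lies near -1 in both genotypes, and most other intervals include 0.

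Gpam encodes the enzyme of the first step, and in each genotype its difference was the largest increase among the 23 probes. In Het livers the levels were 1.53, 0.72 and 0.65 on the high-fat diet, against 0.49, 0.00 and -0.83 on the low-fat diet. In WT livers they were 0.90, 1.10 and 1.42 on the high-fat diet, against -0.57, -0.04 and -0.50 on the low-fat diet. Every high-fat liver lay above every low-fat liver of its genotype, although the lowest Het high-fat and the highest Het low-fat mouse were only 0.65 and 0.49.

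In Het livers the difference of Gpam was 1.08 ± 0.33, or 2.11-fold (limma adjusted p = 0.0518), and did not pass. In WT livers it was 1.51 ± 0.33, a 2.85-fold higher level (limma adjusted p = 0.0313). Leaving out WT high-fat replicate 1, 2 or 3 or WT low-fat replicate 1 or 3 ended the WT call (adjusted p up to 0.099), as did testing without a filter on dim probes. The interaction was -0.44 ± 0.47 (limma adjusted p = 1), so a difference between the genotypes in the diet effect was not called. Over both genotypes Gpam was 1.30 ± 0.24 higher (limma adjusted p = 0.00341), and this call held whichever array was left out. As these are whole livers, more cells that express a gene and more RNA per cell cannot be told apart here or below.

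**Figure D2:**
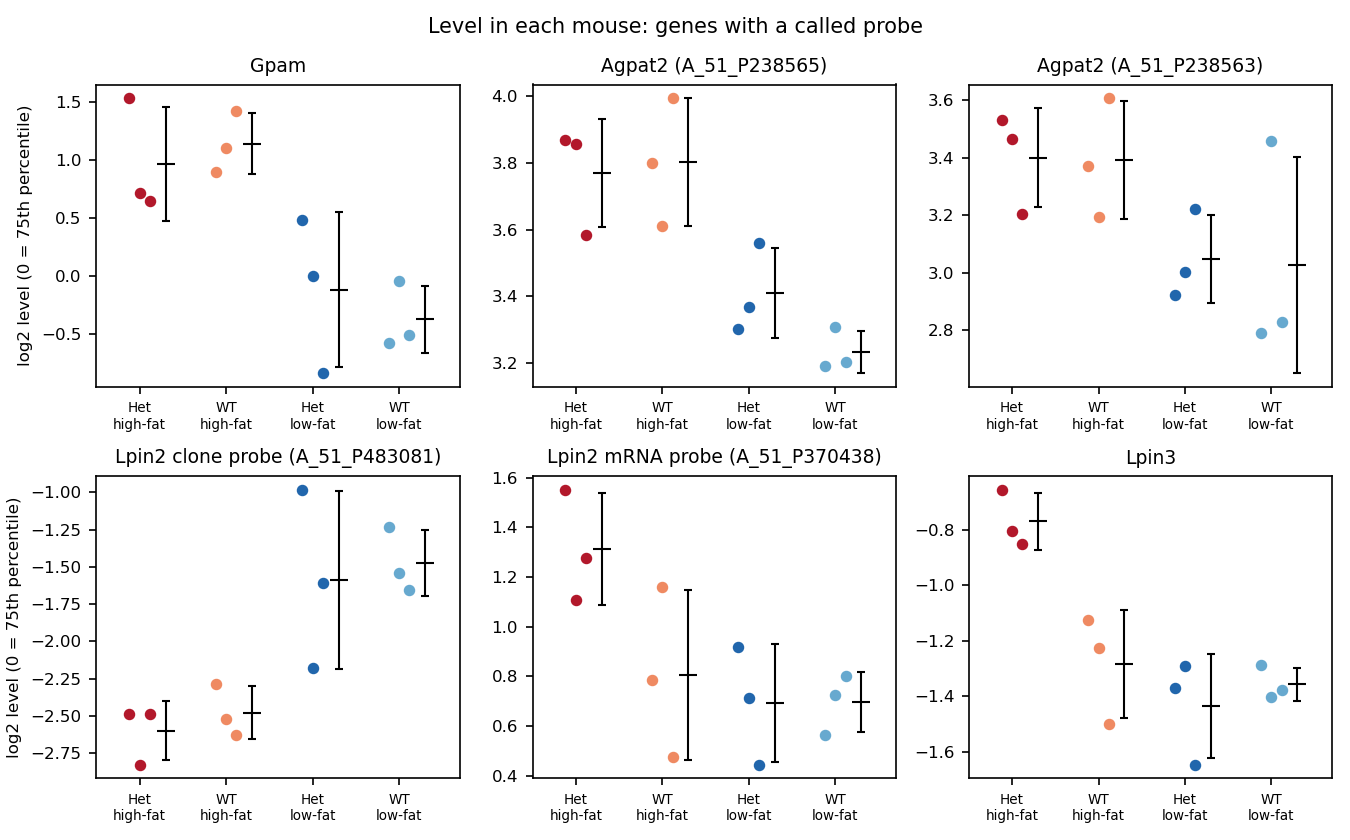
Log2 level of 6 probes in each mouse, as coloured points for replicates 1 to 3 from left to right in a group, with the group mean ± SD in black (n = 3); each panel has its own axis. The high-fat groups lie above the low-fat groups for Gpam and Agpat2 probe A_51_P238565 and below them for the Lpin2 clone probe. Lpin3 and the Lpin2 mRNA probe stand highest in the Het high-fat livers.

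Agpat2 encodes the acyltransferase of the next step, and loss of its human counterpart causes a congenital lipodystrophy. On probe A_51_P238565 the Het levels were 3.87, 3.86 and 3.58 on the high-fat diet, against 3.30, 3.37 and 3.56 on the low-fat diet. The WT levels were 3.80, 3.61 and 3.99 on the high-fat diet, against 3.19, 3.31 and 3.20 on the low-fat diet. The diets did not overlap within either genotype, but in Het livers the margin was 3.58 against 3.56. The difference was 0.36 ± 0.14 in Het livers (limma adjusted p = 0.0968) and 0.57 ± 0.14 in WT livers, or 1.48-fold (limma adjusted p = 0.0394). The WT call was lost when any 1 of 8 arrays was left out, namely any WT array, Het low-fat replicate 1 or Het low-fat replicate 2 (adjusted p up to 0.128). It was also lost without the filter on dim probes and in a fit of the WT arrays alone. The interaction was -0.21 ± 0.19 (limma adjusted p = 0.992). Over both genotypes the probe was 0.46 ± 0.10 higher (limma adjusted p = 0.00626), whichever array was left out.

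The other Agpat2 probe (A_51_P238563) reads the capitals printed above and 20 bases beyond them. In Het livers its levels were 3.53, 3.47 and 3.205 on the high-fat diet, against 2.92, 3.004 and 3.22 on the low-fat diet. In WT livers they were 3.37, 3.20 and 3.61 on the high-fat diet, against 2.79, 3.46 and 2.83 on the low-fat diet. WT low-fat replicate 2 thus stood among the high-fat mice on this probe, but not on the one it shares 40 bases with, where that mouse was at 3.31. Its difference was 0.35 ± 0.19 in Het (limma adjusted p = 0.233) and 0.37 ± 0.19 in WT livers (limma adjusted p = 0.256). Over both genotypes it was 0.36 ± 0.14 (limma adjusted p = 0.0692) and not called. Without that mouse the WT difference was 0.58 ± 0.16 (limma adjusted p = 0.0608) and that over both genotypes 0.47 ± 0.11 (limma adjusted p = 0.0115).

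Agpat3, which encodes a related acyltransferase that acts on lysophosphatidic acid and other lysophospholipids, had no called probe. Probe A_51_P425490 stayed between 5.34 and 5.62 in all 12 livers, and its diet differences were 0.01 ± 0.11 in Het and 0.10 ± 0.11 in WT livers. Probe A_52_P523569, which lies 2048 bases away, read 3.82, 4.15 and 4.32 in the Het high-fat livers, against 4.86, 4.94 and 4.22 in the Het low-fat livers. It differed by -0.58 ± 0.25 there (limma adjusted p = 0.134) and by -0.13 ± 0.25 in WT livers, where the levels were 4.31, 4.07 and 4.33 on the high-fat diet, against 4.37, 3.93 and 4.81 on the low-fat diet. The diets overlapped on both probes.

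The lipins act as phosphatidic acid phosphatases, and lipin 1 also serves as a transcriptional coactivator in mouse liver. Lpin1 had 4 probes and no call, with diet differences between -0.30 and 0.14. On probe A_52_P483105 the levels were 3.75, 2.52 and 2.95 in Het high-fat, 2.90, 3.62 and 2.04 in WT high-fat, 3.33, 2.56 and 3.56 in Het low-fat and 3.71, 2.51 and 2.47 in WT low-fat livers. Mice of 1 group thus differed more from each other than the group means did.

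The spread of Lpin1 was seen alike on all its probes. Within groups the residual SD was 0.67 on each, larger than for 95.8% to 95.9% of all probes tested, whose median was 0.24. In Het high-fat livers replicate 1 was the highest and replicate 2 the lowest on all 4 probes, and in WT high-fat livers replicate 2 was highest and replicate 3 lowest. Replicate 3 was highest and replicate 2 lowest in Het low-fat livers, and replicate 1 was highest in WT low-fat livers, also on every probe. The 4 probes are not all separate readings. A_52_P483104 and A_52_P483105 share 40 bases. A_52_P483101 starts 60 bases from A_52_P483104, but their longest shared run is 4 bases. A_51_P394984 starts 814 to 894 bases from the others and shares runs of at most 6 bases with them. Its levels followed theirs over the arrays, with Pearson r from 0.87 to 0.94. The gap from highest to lowest mouse of a group ran from 0.92 to 1.65. Confidence intervals of the diet differences reached from -1.35 to 1.19.

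**Figure D3:**
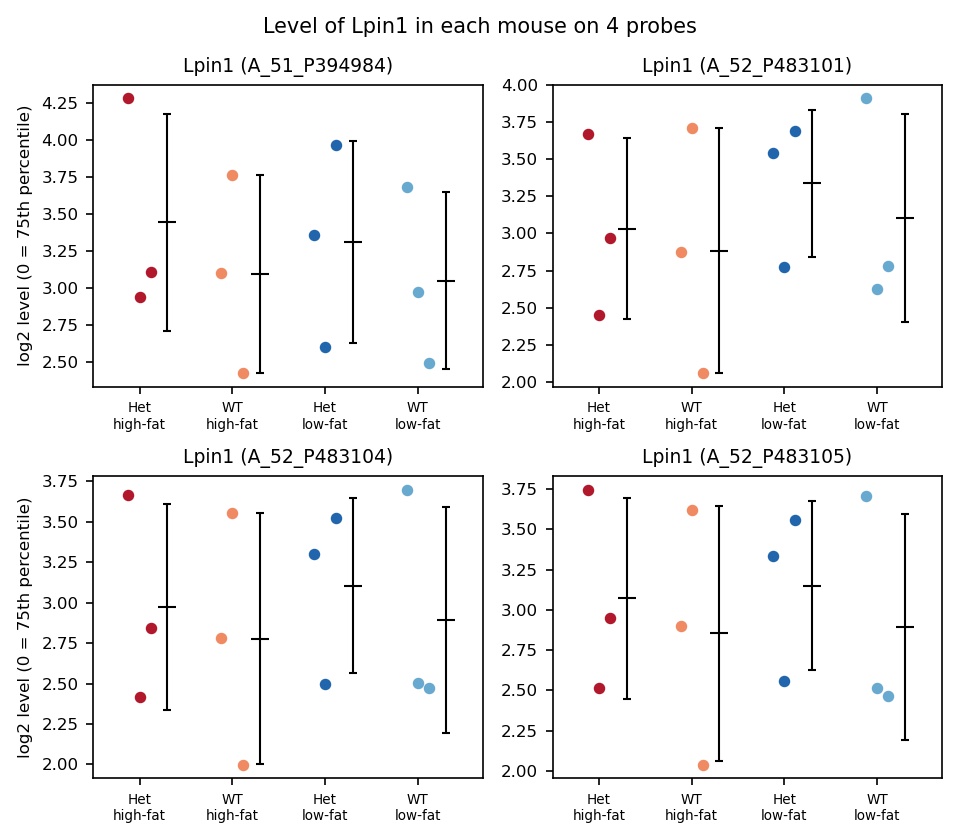
Log2 level of Lpin1 in each mouse on its 4 probes, as coloured points for replicates 1 to 3 from left to right in a group, with the group mean ± SD in black (n = 3). The groups overlap on every probe, and the same mouse is highest in its group on all 4 probes.

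Lpin2 had 4 probes, and they differed among themselves. The clone probe (A_51_P483081) read -2.49, -2.83 and -2.49 in Het high-fat livers, against -0.98, -2.18 and -1.61 in Het low-fat livers. In WT livers it read -2.28, -2.52 and -2.63 on the high-fat diet, against -1.23, -1.54 and -1.65 on the low-fat diet. The diets did not overlap, as held in this direction for 19.2% of all probes in Het and 18.5% in WT livers.

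The clone probe fell by 1.01 ± 0.26 on the log2 scale with the high-fat diet in Het livers, to 49.7% of the low-fat level (limma adjusted p = 0.0269). In WT livers the difference was -1.004 ± 0.257 (limma adjusted p = 0.0474). The WT call was lost when any 1 of 10 arrays was left out, the exceptions being Het low-fat replicates 1 and 2, with adjusted p up to 0.138. The Het call was lost without Het high-fat replicate 1 or 2 or Het low-fat replicate 1 or 3, with adjusted p up to 0.0785. Without the filter on dim probes both calls were lost. The probe holds 21 G or C bases of 60, and with each array's trend on GC content and brightness removed the differences were -0.81 ± 0.25 in Het (limma adjusted p = 0.0572) and -0.88 ± 0.25 in WT livers (limma adjusted p = 0.0613). Over both genotypes it was 1.01 ± 0.18 lower (limma adjusted p = 0.00332), and that call held without any 1 array.

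The Lpin2 mRNA probe (A_51_P370438) did not follow it. Its levels were 1.55, 1.11 and 1.28 in Het high-fat livers, against 0.92, 0.71 and 0.44 in Het low-fat livers. In WT livers they were 0.78, 1.16 and 0.48 on the high-fat diet, against 0.56, 0.73 and 0.80 on the low-fat diet. The Het groups did not overlap, and the WT groups did. The difference was 0.62 ± 0.19 in Het livers (limma adjusted p = 0.0535) and 0.11 ± 0.19 in WT livers (limma adjusted p = 0.752), so neither passed, and the interaction was 0.51 ± 0.27 (limma adjusted p = 0.952).

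The other Lpin2 probes gave no call. A_51_P256323, from another clone called unclassifiable and 3175 bases downstream of the mRNA probe, lay between 5.41 and 6.11 and differed by 0.08 ± 0.17 in Het and 0.16 ± 0.17 in WT livers. A_52_P397786, from a clone annotated as lipin 2, was the dimmest, between -5.28 and -2.51. Its residual SD of 0.90 exceeded that of 98.5% of all probes.

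Lpin3 encodes the third lipin, and its probe was the 1 member called higher in Het livers. It read -0.66, -0.80 and -0.85 in Het high-fat livers, against -1.37, -1.29 and -1.65 in Het low-fat livers. In WT livers it read -1.12, -1.23 and -1.50 on the high-fat diet, against -1.29, -1.40 and -1.38 on the low-fat diet. The 3 Het high-fat livers lay above the other 9, which overlapped.

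The difference of Lpin3 between the diets was 0.67 ± 0.14 in Het livers, or 1.59-fold (limma adjusted p = 0.0125), and 0.07 ± 0.14 in WT livers (limma adjusted p = 0.768). The Het call held under every other processing tried and was lost only without Het high-fat replicate 1 (limma adjusted p = 0.0554). Whether the diet effect differs between genotypes was tested directly. That interaction was 0.59 ± 0.19 (limma adjusted p = 0.857 over all probes) and did not pass. Over both genotypes Lpin3 was 0.37 ± 0.10 higher (limma adjusted p = 0.0172), and with each array's trend on GC content and brightness removed it was 0.28 higher (limma adjusted p = 0.054).

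The last acylation step showed no call. The 2 Dgat1 probes, both of which cross a splice junction, differed by 0.20 ± 0.18 and 0.25 ± 0.21 in Het and by 0.19 ± 0.18 and 0.27 ± 0.21 in WT livers. Probe A_52_P456134 ranged from 0.44 to 1.12 over the 12 livers and probe A_51_P510059 from -0.30 to 0.59. Among the 3 probes of Dgat2, which encodes the acyltransferase that mice need for most of their triglyceride, differences ran from -0.08 to 0.18 in Het and from -0.08 to 0.08 in WT livers. A_52_P592909 varied least, between 7.05 and 7.42, and its 95% confidence interval was -0.35 to 0.19 in either genotype. For A_51_P396003 the interval was wider, from -0.34 to 0.70 in Het and from -0.47 to 0.57 in WT livers.

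Neither route to phosphatidylcholine gave a call. The Pemt probes differed by -0.01 ± 0.14 and 0.15 ± 0.15 in Het and by -0.17 ± 0.14 and 0.17 ± 0.15 in WT livers. The 2 Pcyt1a probes went opposite ways. The mRNA probe (A_51_P294705) read -0.86, -0.88 and -1.40 in Het high-fat, against -1.17, -1.44 and -1.57 in Het low-fat livers, a difference of 0.35 ± 0.16 (limma adjusted p = 0.171). The probe from a cDNA clone 7397 bases further along (A_52_P308881) read 0.90, 1.10 and 1.34 in Het high-fat, against 1.58, 1.48 and 1.30 in Het low-fat livers, a difference of -0.34 ± 0.16 (limma adjusted p = 0.173). In WT livers the differences were 0.08 ± 0.16 and -0.31 ± 0.16. Over both genotypes the clone probe was at -0.32 ± 0.12 (limma adjusted p = 0.0549) and the mRNA probe at 0.22 ± 0.12 (limma adjusted p = 0.185).

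Another 40 genes of glycerolipid synthesis were set beside the members, with the brightest probe of each. Of 36 tested, 3 were higher in Het livers on the high-fat diet (8.33%), against 6.79% of all probes, and 2 were higher in WT livers (5.56%), against 2.42%. None was called lower in either genotype (limma), against 8.01% and 3.27% of all probes. The median difference of the list was 0.04 in Het livers, against -0.01 over all probes, and 0.08 in WT livers, against -0.05. Over both genotypes 7 were higher (19.4%), against 12.3% of all probes, and 1 was lower (2.78%), against 17.1%.

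The monoacylglycerol acyltransferases Mogat1 and Mogat2, which make diacylglycerol without passing through phosphatidic acid, gave the largest differences of this list in Het livers. Mogat1 read 2.44, 2.30 and 2.27 in Het high-fat, against 0.39, 0.58 and -1.03 in Het low-fat livers, a difference of 2.36 ± 0.48 (limma adjusted p = 0.0117). In WT livers Mogat1 read 1.61, 1.28 and 2.17 on the high-fat diet, against 0.29, -1.18 and 0.48 on the low-fat diet. That difference of 1.83 ± 0.48 passed narrowly (limma adjusted p = 0.0497) and was lost when any 1 array other than Het low-fat replicate 3 was left out (adjusted p up to 0.146). The same call was also lost under normexp or quantile processing, with no filter on dim probes, with 1 probe per gene, in a fit of the WT arrays alone and with the GC and brightness trend removed. Mogat2 read -0.08, -0.88 and -0.45 in Het high-fat, against -2.77, -2.66 and -2.37 in Het low-fat livers, a difference of 2.13 ± 0.39 (limma adjusted p = 0.00899). In WT livers Mogat2 read -0.95, -1.31 and -1.82 on the high-fat diet, against -1.66, -3.11 and -3.33 on the low-fat diet, which overlapped at 1.34 ± 0.39 (limma adjusted p = 0.0692). Its interaction was 0.79 ± 0.56 (limma adjusted p = 0.987).

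Plpp2, a membrane-bound lipid phosphate phosphatase that also accepts phosphatidic acid, was the gene of this list called in both genotypes whichever array was left out. It read 0.00, -0.59 and -0.30 in Het high-fat, against -1.68, -1.23 and -1.24 in Het low-fat livers, a difference of 1.09 ± 0.17 (limma adjusted p = 0.00492). In WT livers it read -0.49, -0.39 and -0.41 on the high-fat diet, against -1.45, -1.52 and -1.56 on the low-fat diet, a difference of 1.08 ± 0.17 (limma adjusted p = 0.0121). Neither genotype showed any overlap between the diets.

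Among 10 regulators of lipid synthesis, Pparg, the nuclear receptor of fat storage, was higher in both genotypes. It read 2.95, 2.60 and 2.39 in Het high-fat, against 1.48, 1.84 and 1.27 in Het low-fat livers, a difference of 1.12 ± 0.20 (limma adjusted p = 0.00782). In WT livers the difference was 1.20 ± 0.20 (limma adjusted p = 0.0146), and both calls held without any 1 array. Scap, the escort protein of the SREBP factors, was lower in Het livers at -0.74 ± 0.21 (limma adjusted p = 0.0368) and stood at -0.54 ± 0.21 in WT livers (limma adjusted p = 0.133), with an interaction of -0.20 ± 0.29 (limma adjusted p = 1). The Het call of Scap was lost when any 1 of 5 arrays was left out (adjusted p up to 0.128). It was also lost after scaling to the median, with no filter on dim probes and in a fit of the Het arrays alone. Over both genotypes Scap was called lower at -0.64. That call held whichever array was left out (limma adjusted p from 0.00541 to 0.0256).

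The other 8 regulators had no call within a genotype. Srebf1, a main activator of fatty acid and triglyceride synthesis, stood at 0.00 ± 0.27 in Het and -0.10 ± 0.27 in WT livers, and Mlxipl, which encodes the glucose-responsive factor ChREBP, at -0.53 ± 0.21 and -0.16 ± 0.21. Srebf2 stood at 0.31 ± 0.15 in Het and 0.26 ± 0.15 in WT livers, Nr1h3 at 0.23 ± 0.19 and 0.10 ± 0.19, and Ppara at 0.00 ± 0.16 and -0.26 ± 0.16. Ppargc1a stood at 0.14 ± 0.21 and -0.31 ± 0.21, Insig1 at 0.40 ± 0.23 and 0.62 ± 0.23, and Insig2 at 0.14 ± 0.28 and 0.34 ± 0.28. Insig1, an anchor that retains SCAP in the endoplasmic reticulum, was called higher over both genotypes (0.51; limma adjusted p = 0.0354), a call lost when any 1 of 9 arrays was left out.

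**Figure D4:**
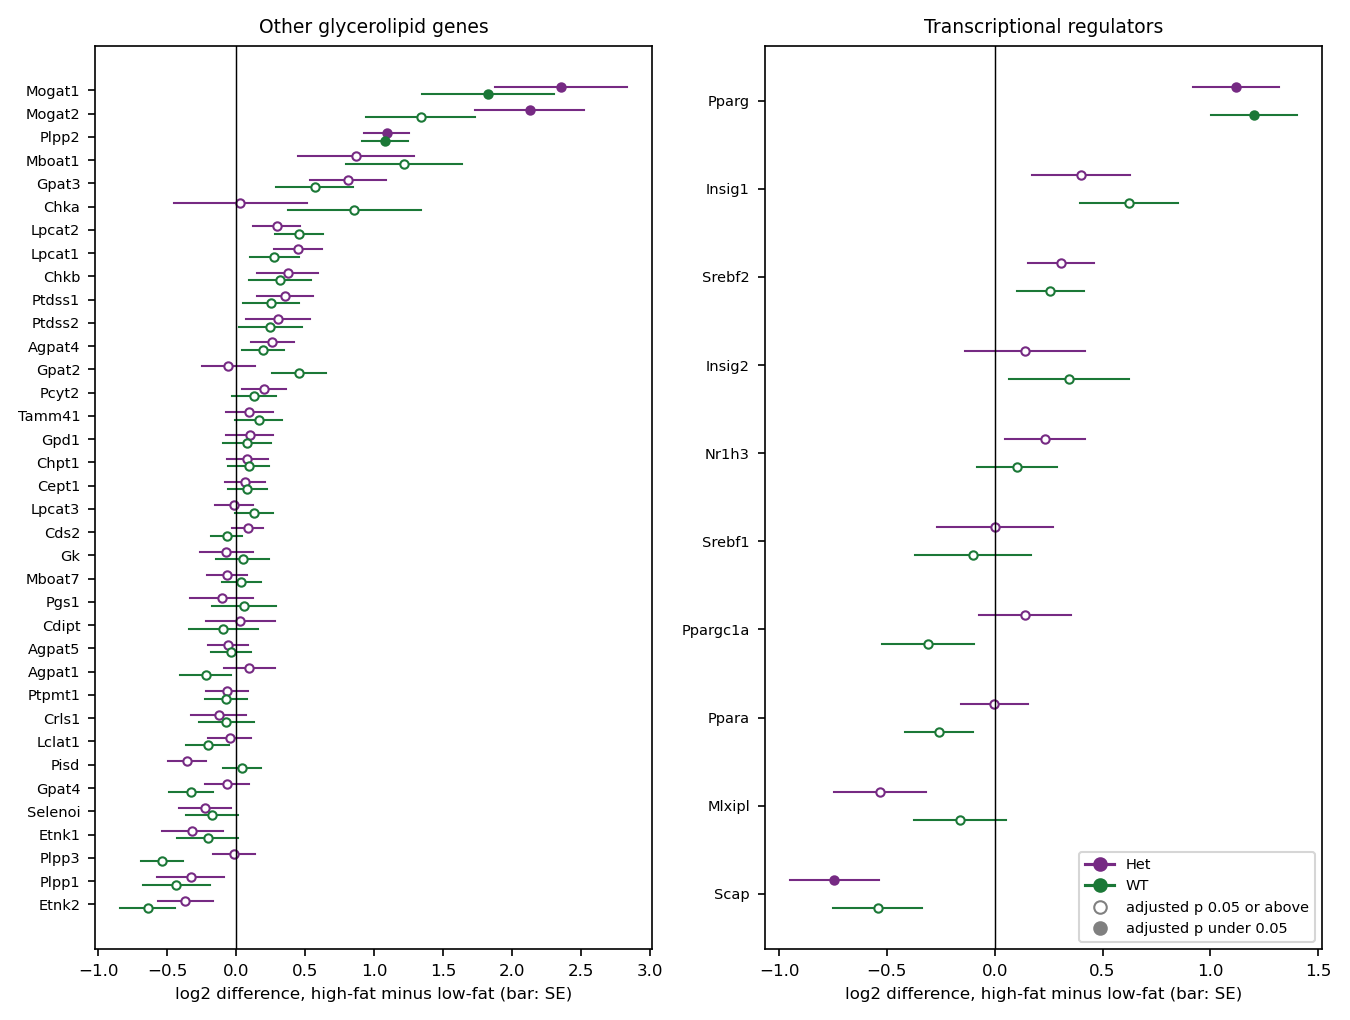
Log2 difference between the high-fat and the low-fat diet in Het (purple) and WT (green) livers for 36 other glycerolipid genes (left) and 10 regulators (right), with bars for the SE and filled points where the adjusted p was under 0.05. Mogat1, Mogat2 and Plpp2 stand at the top of the left panel and Pparg at the top of the right one, while Srebf1 lies at 0.

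Markers of several cell types moved with the diet, among them those of adipocytes, which also express these enzymes. Of 8 markers 4 passed the filter. Aqp7 did so although well above background on only 5 of 12 arrays, so its calls rest on levels near background. Fabp4, Cidec and Aqp7 were higher in both genotypes, Cfd was called in neither alone, and all 4 were higher over both genotypes. Their summed level, in multiples of the 75th percentile, was 28.0 to 69.7 in Het high-fat, 33.1 to 43.3 in WT high-fat, 5.51 to 11.3 in Het low-fat and 6.24 to 9.53 in WT low-fat livers. Of the defining adipocyte genes, Lep was well above background on 0 of 12 arrays, Plin1 on 3 and Adipoq on 7, and none of them passed the filter. Cidec and Fabp4 made most of each adipocyte sum, and lipid-laden hepatocytes also express both. Of 9 hepatocyte markers 3 were lower in Het livers, 1 in WT livers and 4 over both genotypes. Their summed level was 1152 to 1658, 1159 to 1408, 1251 to 1556 and 1309.8 to 1705 in the same order of groups.

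Of 8 stellate cell markers 4 were higher in Het and 3 in WT livers, collagen genes Col1a1 and Col3a1 in both, and 6 were higher over both genotypes. Their summed level was 31.6 to 51.7 in Het high-fat, 34.7 to 37.6 in WT high-fat, 22.5 to 30.0 in Het low-fat and 21.3 to 24.1 in WT low-fat livers, so the diets did not overlap. Of 9 macrophage markers 4 were higher and Timd4 was lower in Het livers, and Trem2 and Gpnmb were higher in WT livers, while the summed levels of the diets overlapped at 23.2 to 51.4, 37.7 to 41.8, 25.2 to 56.6 and 31.7 to 52.8 in the same order. Of 6 cholangiocyte markers 2 were higher in Het and 0 in WT livers, and 4 were higher over both genotypes. Their summed level was 13.1 to 69.7 in Het high-fat, 20.0 to 24.5 in WT high-fat, 7.19 to 9.62 in Het low-fat and 6.73 to 9.31 in WT low-fat livers. Spp1 alone made most of each sum, with log2 levels of 6.06, 3.61 and 5.11 in Het high-fat livers. The median log2 difference of the 6 markers between the diets was 1.17 in Het and 0.83 in WT livers. Of 5 endothelial markers Kdr was lower in both genotypes and Lyve1 was higher in WT livers. The part of these cell types in the differences above was not tested.

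The genotype comparisons asked whether the livers of Het mice differ from those of WT mice on the same diet. None of the 23 probes was called on either diet, over both diets or in the interaction, as was the case for 0 of 25297 probes (limma; 0% called). At an unadjusted p under 0.05 there were 2 of 23 member probes with the high-fat diet, 0 with the low-fat diet, 1 over both and 1 in the interaction. Among all probes there were 2288 (9.04%), 582 (2.3%), 1300 (5.14%) and 1343 (5.31%) in the same order. With the high-fat diet the median difference of the members was 0.11, against 0.03 over all probes, and with the low-fat diet it was 0.08, against 0.00.

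**Figure D5:**
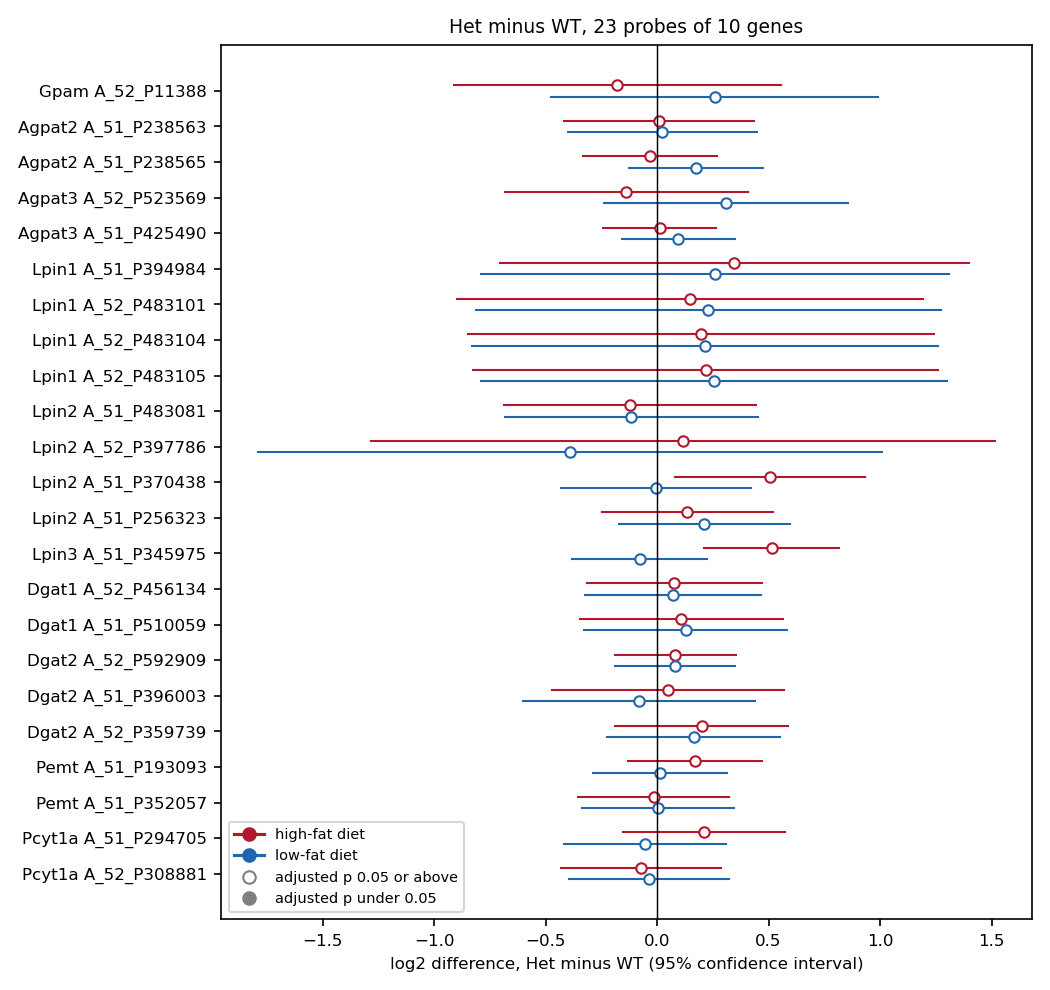
Log2 difference between Het and WT livers for each of the 23 probes, with the high-fat (red) or low-fat diet (blue), with bars for the 95% confidence interval; open points mark an adjusted p of 0.05 or above, and all points are open. The intervals of the Lpin2 mRNA probe and of Lpin3 on the high-fat diet lie above 0 before adjustment, and all others include 0.

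Without overlap between the genotypes, 1 member probe lay higher and 0 lower in Het livers on each diet, against 9.67% and 5.86% of all probes for high-fat and 2.11% and 2.64% for low-fat livers. On the high-fat diet that probe was Lpin3, with Het livers at -0.66 to -0.85 and WT livers at -1.12 to -1.50, a difference of 0.51 ± 0.14 (limma adjusted p = 0.427). On slide 2, which held both genotypes, the Het mean was 0.73 above the 1 WT array. On the low-fat diet the difference was -0.08 ± 0.14, and on slide 3 the 1 Het array was 0.01 below the WT mean. The Lpin2 mRNA probe differed by 0.51 ± 0.19 on the high-fat diet (limma adjusted p = 0.485), with overlapping groups, and by 0.84 on slide 2.

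On the low-fat diet the probe without overlap was Dgat2 A_52_P592909, at 7.29, 7.31 and 7.42 in Het low-fat, against 7.25, 7.25 and 7.28 in WT low-fat livers. This difference of 0.08 ± 0.12 (limma adjusted p = 1) was smaller than its own error. Gpam was at -0.18 ± 0.33 between Het and WT livers with the high-fat diet (95% confidence interval -0.91 to 0.55) and at 0.26 ± 0.33 with the low-fat diet. Within slide 2 and slide 3, which held both genotypes, its differences were -0.46 and 0.86. For Agpat2 probe A_51_P238565 they were -0.22 and 0.07, and for the Lpin2 clone probe 0.03 and 0.49.

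The genes whose levels over the 12 arrays were most like those of Gpam, Agpat2 and Lpin3, the 3 members with the lowest p for diet over both genotypes on their brightest probe, were named by Pearson correlation among 14168 genes, as a description. For Gpam they included Klf6 (r = 0.95) and Pyroxd2 (0.95). For Agpat2 they were Hsd17b13 (0.97), Aldh5a1 (0.96) and Lrsam1 (0.96), and for Lpin3 they were Pkp3 (0.98), Fbxo40 (0.96) and Capn1 (0.94). The 12 arrays share the 2 diets and 4 slides.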

How the data were processed

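Per the labels, total RNA of 12 mouse livers was labelled with Cy3 and hybridised to 1-colour Agilent arrays. The submitters' processing notes name Agilent Feature Extraction 9.5. The deposited intensity of a spot is, per the file headers, already background-subtracted and detrended within its array. Deposited flags for background, saturation and outliers are 0 or 1. The deposited series table held the same intensity values. The genome build is mm7 per the file headers.

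Processed intensity was taken as log2, and the log2 75th percentile of the non-control spots of the array was subtracted. Outlier-flagged spots were left out (1344 in all), and saturated spots were kept. A probe entered the fit if some group had it well above background throughout and every group had at least 2 values. The 4 group means were fitted with limma 3.58.1 under R 4.3.3 (8 residual degrees of freedom, 2.99 prior), with two-sided moderated tests and Benjamini-Hochberg adjustment over 25297 probes for each of 7 comparisons. The fit was tested on simulated data. Probes were named through their accession, symbol or older symbol in a RefSeq gene table, and 8437 kept the name of the design. Members and gene lists were chosen with earlier results of these data known. Named genes are all members, all regulators, each other glycerolipid gene called in WT or Het, and the 3 genes most like each of 3 members. Not every gene so named is given here.

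The number of arrays limits the precision. Replicate numbers were not used for pairing. Alternatives covered background correction, normalization, filtering, probes per gene, samples in the fit, replicate and slide blocks, GC and brightness trends and each array left out.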

Additional observations from a re-analysis of the deposited data

How the results depend on the processing

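The sources do not say that replicate numbers pair the mice. Of 18 correlations between same-numbered deviations from group means 3 exceeded 0.1 (range -0.465 to 0.457). With 3 mice per group these correlations cannot decide whether mice were paired. With the replicate block, 1 member probe was higher in WT livers, against 2 without it, as was 1 other glycerolipid gene, against 2, and no other count moved by over 1.5 times. The calls lost with it include those of Agpat2 A_51_P238565 and Mogat1 in WT and Scap in Het livers.

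Counts of member probes called with diet moved as follows. Under normexp background correction 2 were higher in Het. Quantile normalization gave 4 higher in Het and 0 lower in WT. Scaling to the median gave 2 higher in Het, 0 lower in WT and 5 higher over both genotypes. With no filter 0 were lower in Het and 0 higher or lower in WT, where all probes called were 98 higher and 108 lower, against 613 and 826. With 1 probe per gene 0 were lower in Het, WT or both, but the Lpin2 clone probe, the only member called lower, was not in that fit. This count therefore does not bear on its calls. A fit of only the groups compared gave 0 lower in Het and 1 higher in WT. Slide as a random block gave 4 higher in Het, and 6 higher and 3 lower over both. With the trend on GC content and brightness removed 0 were lower in Het or WT.

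Other glycerolipid genes, whose alternatives were chosen after seeing the data, moved likewise. In WT livers 1 was higher under normexp, quantile, no filter, 1 probe per gene, only the groups compared and GC trend, 4 under median scaling and 5 with slide as a random block. In WT livers 1 was lower under normexp and under GC trend, and 2 with the slide block. In Het livers 6 were higher and 1 lower with the slide block, and 5 higher under GC trend. Over both genotypes 3 were higher and 0 lower without a filter, 3 lower with the slide block and 2 lower under GC trend.

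Leaving out 1 array gave 0 to 2 member probes higher and 0 to 1 lower in Het, 0 to 2 higher and 0 to 1 lower in WT, and 3 to 5 higher and 1 to 2 lower over both. Of the other genes 3 to 4 were higher in Het, 1 to 2 in WT and 3 to 9 over both, where 0 to 1 were lower. Member counts for genotype and interaction stayed at 0. Of the single-probe results under alternatives, 3894 kept their side of the threshold, 33 gained a call and 77 lost one. Changes of direction with a call numbered 0. Only results called in the fit reported above could lose a call, and most of the 3894 were not called there. In WT livers the member calls were lost in 5 (Gpam), 8 (Agpat2) and 10 (Lpin2) of 12 fits with 1 array left out. In Het livers they were lost in 4 (Lpin2) and 1 (Lpin3). A probe near background, such as Lpin2 A_52_P397786, limits what can be seen, and 3 mice per group leave wide intervals for Lpin1.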

Other observations

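Genes of the circadian clock were set beside Lpin1 after its spread within groups had been seen, so the values are a description with no test. Values were available for 13 of them after the filter. The mouse with the highest Lpin1 level of its group also had the highest level of Per3, a period gene, in 4 of 4 groups, and of Per1 and Ciart in 3 of 4. This match of the highest mouse held in 2 of 4 groups for Per2, Cry1, Cry2, Dbp, Tef and Hlf and in 1 for Nr1d1 and Nr1d2. For Cry1, Tef and Nr1d2 the mouse highest in Lpin1 was the lowest in 2 groups. The mouse lowest in Lpin1 on probe A_52_P483105 was also the lowest in Per1, Cry2, Nr1d1 and Hlf in 3 of 4 groups. It was the lowest in Per2, Cry1 and Ciart in 2, in Per3, Arntl, Nr1d2, Dbp and Tef in 1, and in Clock in 0. The mouse highest in Lpin1 had the lowest level of Clock in 4 of 4 groups and of Arntl, which encodes the partner of CLOCK, in 3 of 4. With 3 mice per group such matches also arise by chance, and their share over all probes is not given here. The time of day at which the livers were taken is not stated, and its part in the spread of Lpin1 was not tested.

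Among the other glycerolipid genes, 5 more were called over both genotypes while passing in neither alone, and they were picked for these values. Mboat1 was 1.04 ± 0.30 higher with the high-fat diet (limma adjusted p = 0.0234) and Gpat3, which encodes an acyltransferase of the first step in the endoplasmic reticulum, was 0.69 ± 0.20 higher (limma adjusted p = 0.0241). The lysophosphatidylcholine acyltransferase genes Lpcat1 and Lpcat2 were 0.36 ± 0.12 higher (limma adjusted p = 0.0485) and 0.37 ± 0.12 higher (limma adjusted p = 0.0411). Etnk2, an ethanolamine kinase gene, fell by 0.51 ± 0.14 on the log2 scale (limma adjusted p = 0.0218). These calls were not stable: the list held 3 to 9 higher and 0 to 1 lower calls when 1 array was left out, and 3 and 0 without a filter on dim probes, where the higher calls of Mogat1, Mogat2 and Plpp2 held.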
